A study of Mus musculus with 28 samples.

Results

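Regulatory T cells (Tregs) of the spleen with high surface OX40 were compared with those with low surface OX40, and the 6 samples of this comparison are 6 of the 14 in the series and 12 of its 28 RNA-seq libraries. They were chosen by the tissue, gate and mouse in the sample titles, with mouse 1 to 3 in each gate and 2 libraries averaged to 1 sample per mouse and gate. All mice were of a Foxp3-GFP reporter strain, in which cells that transcribe the Treg factor Foxp3 fluoresce green, and all carried an intradermal implant of B16 melanoma cells. Spleens were taken 7 to 10 days after the implant, and cells stained for CD45, CD3, CD4 and OX40 were sorted into a GFP+ OX40-high gate and a GFP+ OX40-low gate, called OX40plus and OX40minus in the labels. Both gates therefore come from tumor-bearing animals. Total RNA was made into TruSeq libraries, and the samples held 22.4 to 26.6 M estimated counts each. The sources used here state neither the age and sex of the mice nor the width of the gates.

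OX40 is a receptor of the tumor necrosis factor (TNF) receptor family that T cells raise after they meet antigen. Its ligand sits on activated antigen-presenting cells, and the bound receptor recruits TRAF adaptor proteins and feeds the NF-kB pathway, which favors survival and division. In lymphoid organs, Tregs are commonly divided into resting (central) cells, which circulate through lymphoid tissue and carry Klf2, S1pr1 and Ccr7 transcripts, and effector cells, which have seen antigen and carry inhibitory receptors and suppressive cytokines.

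Levels are given as CPM, counts scaled to the size of the library. Differences are OX40plus minus OX40minus on the log2 scale, where the deposited values hold an offset of 0.5 counts that understates the change of low genes. Genes count as called when limma's p, adjusted by Benjamini and Hochberg's method over all 11399 genes tested, was under 0.05. Of these, 1877 were called (16.5%), with 990 higher in OX40plus (8.68%) and 887 lower (7.78%), and 298 of the higher (2.61%) and 420 of the lower genes (3.68%) changed by at least 1 on the log2 scale. The median log2 fold change of all genes tested was 0.01. The gates did not overlap in CPM for 3802 of the genes tested (33.4%). The rankings of the highest and lowest genes kept only such genes. The mouse 3 OX40plus sample stood apart from the other samples of its gate (between libraries, the median chi-square over genes was 4.45 to 6.29, and 1.43 to 1.49 between mouse 1 and mouse 2), and without it 2050 genes were called. The mouse 1 OX40minus sample stood apart in its gate by less (2.76 to 3.75 against 1.42 to 1.48 between mouse 2 and mouse 3). Counts also leaned on other samples, with 1118 genes called without OX40plus of mouse 1 and 1129 and 1215 without OX40minus of mouse 2 and 3. Ribosomal protein genes took 7.23% of its counts, against 5.21% and 5.61% in the other OX40plus samples and 5.69% to 7.64% in OX40minus.

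Sequences are shown for 2 sets of called genes. They are 2 TNF receptors and a transporter among the genes that rose most, and 3 replication genes from a list in which nearly all members rose. The sequences are RefSeq promoters of build GRCm38.p6, which run from 250 bases before to 50 bases after an annotated start. They are written 5′ to 3′ on the gene's strand. Of 16 strongly raised genes looked up, 13 had an entry, and Penk, Il10 and Nrn1 did not. In the first 3 promoters capitals mark matches to the NF-kB motif on either strand, which 8.46% of all 32851 promoters of this length held. By gene, 12.6% of the 9154 tested genes with a promoter held it in at least 1, as did 6 of the 13 raised genes looked up, and the 3 shown were chosen because they hold it. Overlapping matches were merged and counted as 1. The Tnfrsf8 promoter (chr4:145315115-145315414, minus strand) had 1 match and Slc7a10 (chr7:35186135-35186434, plus strand) had 2. The Tnfrsf9 promoter shown (chr4:150927749-150928048, plus strand) is that of the downstream of 2 listed starts and had 1 match. The Tnfrsf8 and Tnfrsf9 promoters also each held 1 AP-1 motif, TGANTCA, found in 7.81% of all promoters, which does not overlap the capitals. The promoters of Ccr8 and Il1r2 held none of these motifs.
Tnfrsf8: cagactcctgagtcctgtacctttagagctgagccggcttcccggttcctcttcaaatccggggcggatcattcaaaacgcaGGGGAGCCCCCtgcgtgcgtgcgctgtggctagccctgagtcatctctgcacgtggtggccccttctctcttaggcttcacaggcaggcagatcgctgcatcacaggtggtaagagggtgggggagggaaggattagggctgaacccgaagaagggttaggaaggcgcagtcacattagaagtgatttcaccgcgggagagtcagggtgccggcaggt
Tnfrsf9: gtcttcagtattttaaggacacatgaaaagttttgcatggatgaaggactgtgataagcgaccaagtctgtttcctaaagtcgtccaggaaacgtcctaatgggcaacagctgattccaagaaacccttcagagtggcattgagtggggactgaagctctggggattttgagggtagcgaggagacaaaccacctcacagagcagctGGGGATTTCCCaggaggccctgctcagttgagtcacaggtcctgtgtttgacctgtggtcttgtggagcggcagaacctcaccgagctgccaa
Slc7a10: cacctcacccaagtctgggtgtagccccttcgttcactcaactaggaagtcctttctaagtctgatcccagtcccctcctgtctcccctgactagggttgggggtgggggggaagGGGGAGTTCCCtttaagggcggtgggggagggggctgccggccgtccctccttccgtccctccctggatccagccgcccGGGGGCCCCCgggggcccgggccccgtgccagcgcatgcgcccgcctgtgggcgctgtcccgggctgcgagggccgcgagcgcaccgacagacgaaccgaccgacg

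In the next 3 promoters capitals mark matches to TTTNNCGC on either strand, the core of the motif of the cell cycle factors E2F. They belong to Mcm5 (chr8:75109259-75109558, plus strand), Mcm6 (chr1:128359656-128359955, minus strand) and Cdc6 (chr11:98907901-98908200, plus strand). Mcm5 and Mcm6 are subunits of the replicative helicase, and Cdc6 helps to load it onto DNA. Of 27 tested DNA replication genes with a promoter in the table, 14 held this motif (51.9%), against 880 of the 9154 tested genes with a promoter (9.61%) and 3 of 32 mitosis genes (9.38%). A match describes the letters in this window, not a bound site.
Mcm5: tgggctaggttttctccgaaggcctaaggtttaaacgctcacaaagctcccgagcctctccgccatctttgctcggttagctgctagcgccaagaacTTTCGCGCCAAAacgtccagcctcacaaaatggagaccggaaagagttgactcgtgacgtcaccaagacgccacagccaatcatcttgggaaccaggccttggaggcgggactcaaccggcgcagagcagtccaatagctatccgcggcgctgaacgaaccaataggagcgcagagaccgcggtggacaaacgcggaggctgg
Mcm6: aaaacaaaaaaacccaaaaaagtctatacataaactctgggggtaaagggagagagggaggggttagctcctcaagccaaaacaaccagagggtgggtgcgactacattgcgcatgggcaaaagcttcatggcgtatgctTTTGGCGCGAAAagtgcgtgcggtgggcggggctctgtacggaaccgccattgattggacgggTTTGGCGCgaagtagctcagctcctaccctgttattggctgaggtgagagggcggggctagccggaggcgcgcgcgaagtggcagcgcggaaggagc
Cdc6: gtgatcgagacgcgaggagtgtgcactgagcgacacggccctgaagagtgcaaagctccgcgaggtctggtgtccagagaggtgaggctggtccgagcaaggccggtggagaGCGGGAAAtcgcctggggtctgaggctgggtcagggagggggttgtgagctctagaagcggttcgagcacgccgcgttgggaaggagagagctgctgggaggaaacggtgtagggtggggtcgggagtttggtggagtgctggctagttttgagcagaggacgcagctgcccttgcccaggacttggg

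The RNA of the receptor used for the sort differed between the gates, as the labels say. Tnfrsf4, the gene of OX40 (chr4:156013843-156016612), was at 298, 242 and 218 CPM in the OX40minus samples of mouse 1, 2 and 3 and at 714, 588 and 810 CPM in their OX40plus samples (log2 fold change 1.48 ± 0.15 SE, limma adjusted p = 0.000661). The groups did not overlap. Foxp3 was at 41.0, 23.3 and 33.1 CPM in OX40minus and 32.1, 31.8 and 130 CPM in OX40plus, so that the groups overlapped and only the mouse 3 OX40plus sample was high. Its log2 fold change of 0.68 ± 0.51 SE was not called (limma adjusted p = 0.453) and was 0.01 without that sample. The T cell genes Cd4 (-0.05) and Cd3e (0.29) were present in both gates and not called. In bulk samples fewer cells of a type and less RNA per cell cannot be told apart, here and in each result that follows.

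Among genes with a mean of at least 10 CPM in the higher gate, the highest fold changes were those of a peptide precursor, a chemokine receptor, a decoy receptor and a transporter, each higher in every mouse. Penk encodes proenkephalin, the precursor of opioid peptides (chr4:4133531-4138819). It was at 13.6, 10.5 and 11.2 CPM in OX40minus and 116, 84.3 and 120 CPM in OX40plus (3.17 ± 0.16 SE, limma adjusted p = 8.47e-05). Mouse 2 had the lowest OX40plus level, still far above each OX40minus sample. Ccr8, a chemokine receptor found on Tregs of tissues and tumors (chr9:120092114-120094906), was at 10.6, 9.66 and 8.94 against 96.3, 74.0 and 82.7 CPM (3.11 ± 0.12 SE, limma adjusted p = 3.13e-05). Il1r2, a decoy receptor that binds interleukin-1 without signaling (chr1:40074079-40125231), was at 5.55, 3.58 and 4.37 against 39.1, 27.5 and 42.8 CPM (3.01 ± 0.21 SE, limma adjusted p = 0.000199). For both, as for Penk, all OX40plus samples lay above all OX40minus samples, as the ranking required.

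Slc7a10, an amino acid transporter of the neutral type (chr7:35186385-35201114), was at 2.23, 1.6 and 1.69 CPM in OX40minus and at 15.9, 11.4 and 18 CPM in OX40plus (3.01 ± 0.22 SE, limma adjusted p = 0.000228). Its profile over the 6 samples was the closest of all tested genes to that of Penk, with a root mean square distance of 0.10 between log2 levels centred on each gene's mean. Il1r2 (0.12) and Ccr8 (0.14) came next, followed by Lrp3 (0.31) and Rassf6 (0.35). Levels were centred over both gates, so this distance includes the gate difference and does not measure likeness between mice alone. In each of Penk, Il1r2 and Slc7a10, mouse 2 was lowest and mouse 3 highest among the OX40plus samples.

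**Figure D1:**
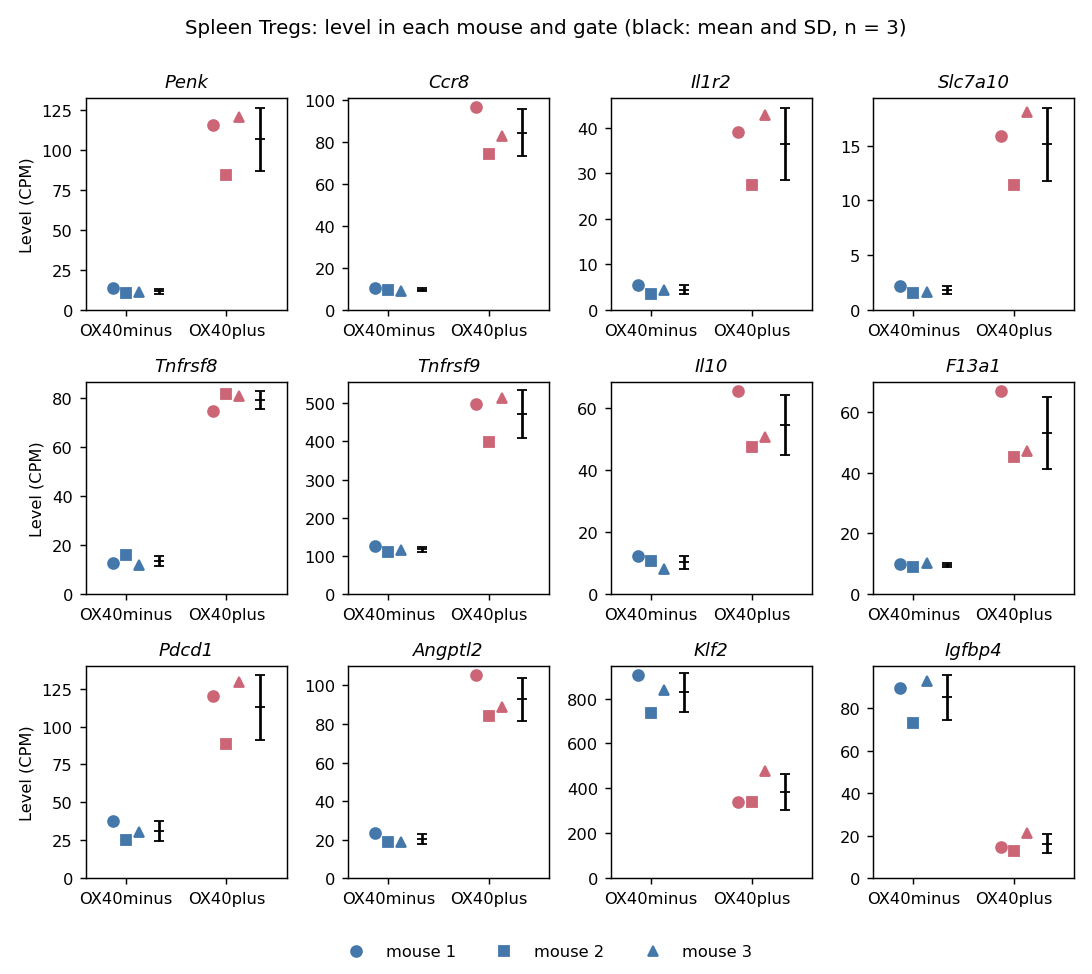
Level in CPM of 12 genes in each mouse (circle, square and triangle for mouse 1, 2 and 3) by gate, with the mean and SD of the 3 samples in black; each panel has its own axis from 0. In all 12 genes the gates do not overlap, with Klf2 and Igfbp4 lower in OX40plus and the other 10 higher, such as Penk at 84.3 to 120 CPM against 10.5 to 13.6. The ranking that chose many of them kept only genes without overlap, which 33.4% of all genes tested were.

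Il10, the gene of a suppressive cytokine, was at 12.1, 10.7 and 7.95 CPM in OX40minus and 65.4, 47.5 and 50.6 CPM in OX40plus (2.41 ± 0.18 SE, limma adjusted p = 0.000240). Nrn1, which encodes neuritin, a small membrane-anchored protein first known from neurons, was at 63.7, 45.1 and 52.8 against 291, 205 and 260 CPM (2.22). Neither gene's groups overlapped, as the ranking required. F13a1 encodes the A subunit of clotting factor XIII and is best known from monocytes and platelets. It was at 9.93, 9.01 and 10.1 CPM in OX40minus and 67.0, 45.3 and 47.3 CPM in OX40plus (2.44 ± 0.16 SE, limma adjusted p = 0.000150). Its rise went against the other genes of the monocyte list, of which 11 of 18 fell and 1 other, Nr4a1, rose. Further genes among the 15 with the highest fold changes at this level were Gjb2, a gap junction protein (2.48), Bcat1, an enzyme of branched-chain amino acid breakdown (2.29), Zan (2.26), the secreted factor gene Angptl2 (84.1 to 106 against 18.8 to 23.5 CPM), Cep112 (2.12), the DNA repair gene Rad51b (2.11) and the phosphatase gene Ptpn5 (2.11).

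Among TNF receptors, 4 of 17 tested members rose and 6 fell (16.5% of all genes were called in either direction), and the list's median was -0.24 against 0.01 for all genes. The 4 that rose were Tnfrsf4 itself and 3 other receptors. Tnfrsf8, the gene of CD30, was at 12.8, 15.9 and 12 CPM in OX40minus and 74.9, 81.9 and 80.7 CPM in OX40plus (2.56 ± 0.12 SE, limma adjusted p = 7.7e-05). Tnfrsf9, the gene of 4-1BB, was at 125, 111 and 117 against 499, 399 and 514 CPM (2.0 ± 0.11 SE, limma adjusted p = 0.000138). Tnfrsf18, the gene of GITR, was at 395, 308 and 288 against 631, 520 and 744 CPM (0.93 ± 0.16 SE, limma adjusted p = 0.00585). In all 3 the gates were apart in every mouse, most widely in Tnfrsf8.

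The TNF receptors that fell included Tnfrsf25, the receptor of TL1A (-0.51), and the decoy receptors Tnfrsf22 (-0.48), Tnfrsf23 (-1.04) and Tnfrsf26 (-0.87). The others were Ltbr (-2.80), the lymphotoxin beta receptor of stromal and myeloid cells, and Tnfrsf11a (-2.08), the receptor RANK of osteoclasts and myeloid cells. Fitting the mouse as a block ended the call of Tnfrsf23 (limma adjusted p = 0.056), and Tnfrsf25 and Tnfrsf23 each held their call in only 1 of the 6 fits that left out a sample. Ltbr and Tnfrsf11a moved with the red pulp macrophage list, whose summed level was 2670 to 3400 CPM in OX40minus and 800 to 1220 CPM in OX40plus, and the part of macrophage RNA in their fall was not tested. Of 9 ligands, Tnfsf11 (RANKL, 0.92) and Tnfsf10 (TRAIL, 0.47) rose and Tnfsf8, the ligand of CD30, fell (-0.83), as did Cd40lg (-0.42). A block for the mouse ended the calls of Tnfsf10 and Cd40lg (limma adjusted p = 0.079 and 0.1), and 0 to 2 ligands rose and 1 fell when single samples were left out. Tnfsf8 was at 39.2, 36.6 and 36.3 CPM in OX40minus and 21.9, 20.4 and 20.8 CPM in OX40plus, opposite in direction to its receptor gene Tnfrsf8.

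Downstream of these receptors, 2 of 24 NF-kB and TRAF genes rose and 2 fell (16.7%, close to the 16.5% of all genes), with a median of 0.01. Nfkbid, an atypical IkB protein that acts with nuclear NF-kB, rose by 0.56 (limma adjusted p = 0.00850). Map3k14, which encodes NIK, the kinase of the alternative NF-kB pathway, was at 89.1, 88.0 and 88.9 CPM in OX40minus and 56.3, 52.8 and 57.8 CPM in OX40plus (-0.67 ± 0.08 SE, limma adjusted p = 0.00105). The other calls were Traf2 (0.32) and Birc3 (-0.26), both lost under a block for the mouse (limma adjusted p = 0.13 and 0.16). Without single samples, 1 member rose and 1 or 2 fell.

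Genes that report antigen receptor signals were mostly higher in OX40plus. Of 17 tested, 11 rose and 1 fell (70.6% called, against 16.5% of all genes), with a median of 0.61. Only 7 rose without the OX40minus sample of mouse 2 or the OX40plus sample of mouse 1. Nr4a1, an immediate response gene and the basis of a common reporter of receptor signaling, was at 261, 216 and 271 CPM in OX40minus and 416, 337 and 474 CPM in OX40plus (0.71 ± 0.14 SE, limma adjusted p = 0.0116). Nr4a2 (1.41), Nr4a3 (0.95), Egr2 (0.95), Tox (0.72), Tox2 (0.77) and Nfatc1 (0.67) rose as well. Of the costimulatory receptor and antigen receptor complex list, 2 of 20 rose, Icos (0.90) and the kinase gene Zap70 (0.47), and 2 fell, among them Slamf6 (-0.30). These calls are 20% of the list, close to the 16.5% of all genes. A block for the mouse left Icos alone (Zap70, limma adjusted p = 0.066), and none fell without any 1 of OX40minus of mouse 1, 2 or 3 or OX40plus of mouse 1. Feedback inhibitors of MAP kinases rose in 5 of 15 cases (33.3%, against 8.68% of all genes called higher), such as Dusp5 (0.66) and Rasal1 (0.44). Only 2 rose without the OX40minus sample of mouse 2 or the OX40plus sample of mouse 1.

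Of 12 inhibitory receptor genes, 6 rose and 1 fell (58.3% called, against 16.5% of all genes), with a median of 0.49. Pdcd1, the gene of PD-1, was at 37.8, 24.9 and 30.1 CPM in OX40minus and at 120, 88.4 and 130 CPM in OX40plus (1.86 ± 0.18 SE, limma adjusted p = 0.000593). Klrg1, a receptor of late effector Tregs, was at 54.7, 58.0 and 50.5 against 184, 127 and 161 CPM (1.52 ± 0.14 SE, limma adjusted p = 0.000438). No OX40plus sample of either gene reached down to an OX40minus sample. Lag3 (1.51), Cd200r1 (1.46), Ctla4 (0.83) and Entpd1, the gene of CD39 (0.46), also rose. Lair1, a collagen receptor also carried by myeloid cells, fell by 1.96 on the log2 scale and moved with the macrophage list, whose part in it was not tested. Havcr2 (0.53), Cd96 (-0.28), Vsir (-0.18), Cd160 (0.22) and Btla (0.10) were not called.

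Of 19 transcription factors of effector Tregs, 10 rose and 2 fell (63.2% called, against 16.5% of all genes), with a median of 0.39. Prdm1, the gene of Blimp-1 and a driver of Il10, was at 56.8, 62.9 and 57.4 CPM in OX40minus and 124, 114 and 96.6 CPM in OX40plus (0.91 ± 0.11 SE, limma adjusted p = 0.00120). Batf, an AP-1 partner of Irf4, was at 109, 96.3 and 82.6 against 194, 165 and 212 CPM (0.99 ± 0.13 SE, limma adjusted p = 0.00192). Both were higher in each mouse. Irf4 (0.61), Bhlhe40 (1.16), Myb (0.91), Id2 (0.89), Nfil3 (1.02), Runx2 (0.81), Tbx21 (0.55) and Gata3 (0.39) were the other 8 that rose.

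Of the effector factors that fell, Zeb2 fell by 1.85 on the log2 scale and, being also a factor of macrophages, moved with their list. In T helper 1 genes, 3 of 9 rose, Tbx21, Cxcr3 (0.40) and Ifng (1.09), and 2 fell, Stat4 (-0.52) and Il18r1 (-0.57). These calls are 55.6% of the list, against 16.5% of all genes. Cxcr3 lost its call under a block for the mouse (limma adjusted p = 0.12), and leaving out single samples gave 0 to 2 higher genes, with 0 without OX40minus of mouse 3.

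Most recirculation genes fell. Of 14 tested, 12 fell and none rose (7.78% of all genes were called lower), with a median of -0.80. Klf2, the factor that keeps T cells circulating (chr8:72319033-72321656), was at 906, 736 and 840 CPM in OX40minus and 339, 338 and 477 CPM in OX40plus (-1.12 ± 0.15 SE, limma adjusted p = 0.00209). S1pr1, the receptor for exit from lymphoid organs, was at 376, 387 and 409 against 191, 204 and 212 CPM (-0.95 ± 0.08 SE, limma adjusted p = 0.000357). The groups did not overlap in either gene. Igfbp4, a binding protein for insulin-like growth factors that marks resting T cells, was at 89.5, 73.2 and 92.7 against 14.8, 12.8 and 21.4 CPM (-2.41 ± 0.19 SE, limma adjusted p = 0.000280). Actn1 (-1.19), Il6ra (-0.93), Ly6c1 (-1.85), S1pr4 (-0.67) and Ccr7 (-0.61) fell too.

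Of 16 transcription factors of resting T cells, 7 fell (43.8%, against 7.78% of all genes called lower) and none rose, with a median of -0.34. Tcf7, the gene of TCF1, was at 337, 283 and 275 CPM in OX40minus and 169, 160 and 191 CPM in OX40plus (-0.78 ± 0.11 SE, limma adjusted p = 0.00231). Satb1, a chromatin organizer, was at 302, 322 and 304 against 166, 185 and 130 CPM (-0.96 ± 0.13 SE, limma adjusted p = 0.00196). Both were lower in every mouse. Lef1 (-0.50), Foxp1 (-0.74), Klf3 (-0.71) and Bach2 (-0.66) were the other members that fell besides Klf2, and Bach2 lost its call under a block for the mouse (limma adjusted p = 0.077). Foxo1 (-0.30), Id3 (-0.27) and Bcl11b (-0.28) were not called. Among 14 BCL2 family genes, the survival gene Bcl2 fell by 0.71 and the death gene Bcl2l11 (BIM) by 0.73 on the log2 scale, while Bcl2l1, the gene of BCL-XL, rose by 0.56, a call lost without OX40minus of mouse 2 or OX40plus of mouse 1.

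**Figure D2:**
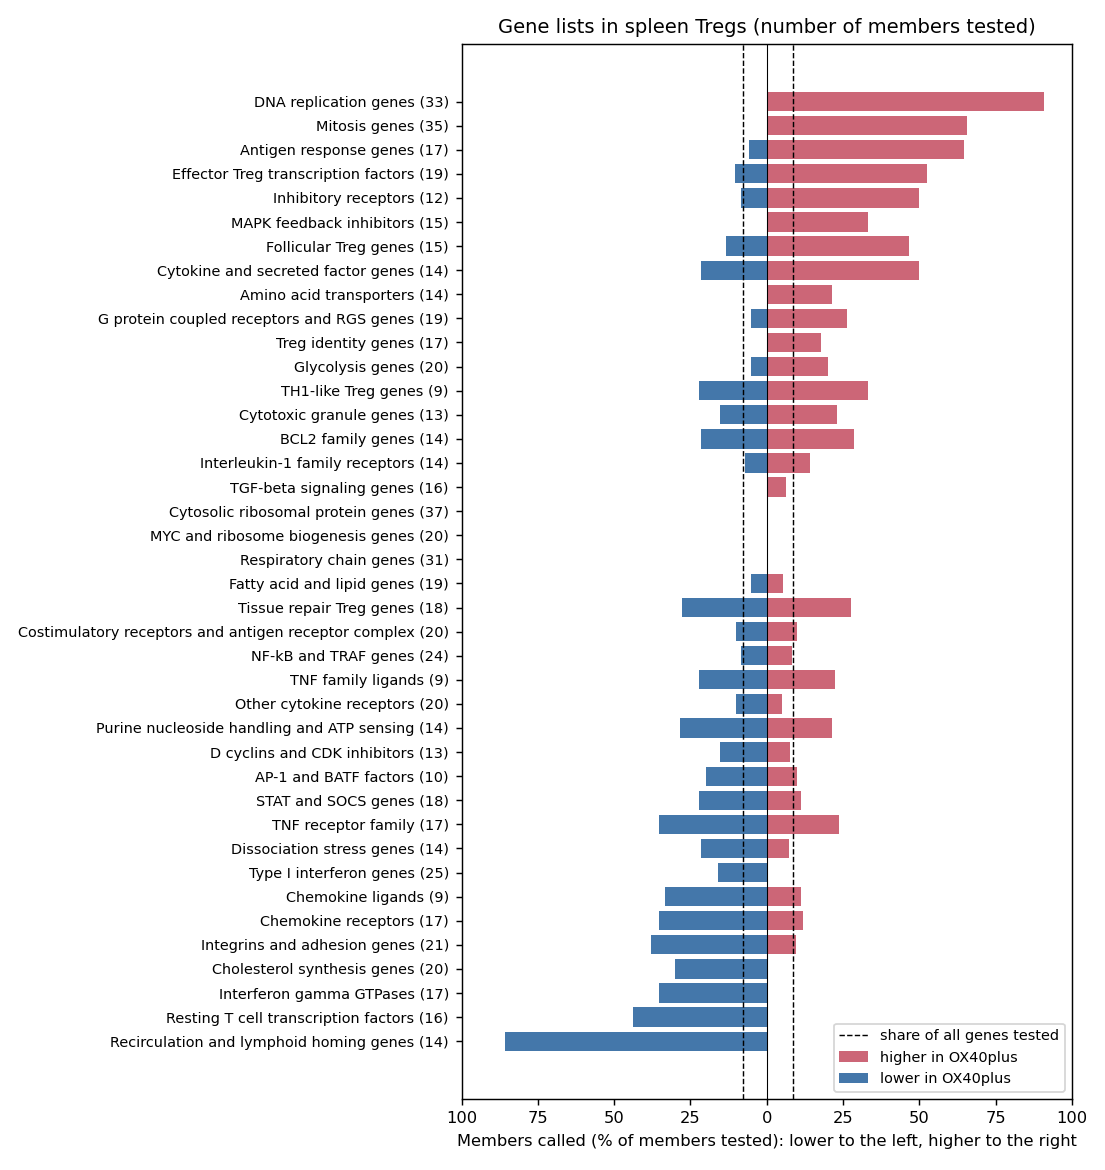
Share of tested members called higher (right, red) or lower (left, blue) in OX40plus for each list of Treg genes and states with at least 9 tested members, whose number stands in brackets; dashed lines give the shares over all genes tested. Replication genes stand at the top with 30 of 33 higher and recirculation genes at the bottom with 12 of 14 lower, while the dashed lines lie at 8.68% and 7.78%.

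Among chemokine receptors, Ccr8 was the exception in its size. Of 17 tested, 2 rose, Ccr8 and Cxcr3, and 6 fell (47.1% called, against 16.5% of all genes), with a median of -0.38. Ccr9, a gut homing receptor, was at 39.3, 43.2 and 43.2 CPM in OX40minus and 12.7, 18.8 and 20.8 CPM in OX40plus (-1.29 ± 0.18 SE, limma adjusted p = 0.00220). Ccr10, a receptor of skin homing cells, was at 31.3, 23.8 and 33.2 against 5.81, 6.6 and 13.3 CPM (-1.86 ± 0.30 SE, limma adjusted p = 0.00413). Neither gene's groups overlapped. Ccr2 (-0.95), Ccr3 (-0.79) and Ccr4 (-0.46) fell, and Ccr1 (-2.30), a receptor of myeloid cells, moved with the macrophage list. Cxcr5 (0.19), Ccr6 (0.35), Cxcr4 (0.17) and Cxcr6 (-0.38) were not called.

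Of 15 genes of follicular Tregs, the cells that restrain germinal centers, 7 rose and 2 fell, with a median of 0.61. These calls are 60% of the list, against 16.5% of all genes. Those that rose include Il1r2, Pdcd1, Angptl2, Matn2 (1.28), Icos, Tox2 and Rgs16 (1.74). The defining genes of the type were not called, with Cxcr5 at 122, 120 and 140 CPM against 124, 140 and 177 CPM and Bcl6 at 27.0, 25.9 and 26.0 against 31.7, 28.5 and 34.8 CPM (0.26, limma adjusted p = 0.141). Cxcr5 levels overlapped between the gates and those of Bcl6 did not. Of the 14 cytokine and secreted factor genes, 7 rose, among them Fgl2 (0.64), Csf1 (0.53) and Lif (0.47), and 3 fell (71.4% called). Only 3 rose without the OX40plus sample of mouse 1. Tgfb1 (0.01) was not called. In 13 granule genes, Cst7 (1.34), Nkg7 (0.95) and Gzmb (0.77) rose and Prf1 (-0.85) and Lamp1 (-0.55) fell (38.5% called). Lamp1 lost its call under a block for the mouse (limma adjusted p = 0.054).

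Of 17 tested genes of the core Treg program, 17.6% were called, close to the 16.5% of all genes. The 3 that rose were Ctla4, Tnfrsf18 and Swap70 (0.62), and none fell, with a median of 0.26. Il2ra, the gene of CD25 (-0.17), Lrrc32 (0.10) and Nrp1 (-0.18) were not called. Ikzf2, the gene of Helios, was at 492, 613 and 641 CPM in OX40minus and 960, 1019 and 600 CPM in OX40plus (0.53 ± 0.20 SE, limma adjusted p = 0.128). Only the mouse 3 OX40plus sample overlapped with OX40minus, and without it the difference was 0.77 and called (limma adjusted p = 0.0046).

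Replication genes were the list with the highest share of raised members. Of 33 tested, 30 rose and none fell (8.68% of all genes were called higher), with a median of 0.82. Lig1, a DNA ligase, was at 57.1, 62.8 and 51.3 CPM in OX40minus and 123, 144 and 121 CPM in OX40plus (1.18 ± 0.11 SE, limma adjusted p = 0.000460). Mcm6, one of the helicase subunits whose promoter is shown, was at 155, 146 and 132 against 246, 256 and 250 CPM (0.79 ± 0.08 SE, limma adjusted p = 0.000806). Both were higher in each mouse by a margin far above the spread. Mcm5 (0.99), Cdc6 (1.24) and E2f1 (0.91) rose as well, and the 3 members that were not called were E2f2 (0.04), E2f8 (0.81) and Gins4 (0.10).

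Mitosis genes rose in 23 of 35 cases (65.7%, against 8.68% of all genes called higher) and none fell, with a median of 0.78. This count of raised genes rested more on single samples. It was 33 without the OX40plus sample of mouse 3, 8 without OX40minus of mouse 3, 13 and 15 without OX40plus of mouse 1 and mouse 2, and 26 when the mouse was fitted as a block. Mki67, the proliferation marker, was at 169, 260 and 223 CPM in OX40minus and 378, 559 and 236 CPM in OX40plus (0.78 ± 0.29 SE, limma adjusted p = 0.117). The mouse 3 OX40plus sample lay among the OX40minus samples, and without it Mki67 was called (1.1, limma adjusted p = 0.0087). Cdk1, the mitotic kinase, was at 26.9, 26.6 and 19.5 against 44.9, 59.6 and 44.6 CPM (1.03 ± 0.16 SE, limma adjusted p = 0.00407), with no overlap.

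Lists of growth, energy and lipid genes differed in their calls. None of 20 MYC and ribosome biogenesis genes, 31 respiratory chain genes or 37 ribosomal protein genes was called by limma, with medians of 0.12, 0.07 and -0.14. At an unadjusted p under 0.05 these counts were 3, 0 and 0, and with limma-voom weights none of these genes was called. Of 20 glycolysis genes, 4 rose, such as the lactate exporter Slc16a3 (1.08) and Tpi1 (0.72). Pdk1, the gene of a kinase that inhibits pyruvate dehydrogenase, fell by 0.82 on the log2 scale. In all, 25% of this list was called against 16.5% of all genes. The number that rose was 2 under a block for the mouse and 2 without OX40minus of mouse 2, OX40minus of mouse 3 or OX40plus of mouse 1. Cholesterol synthesis genes fell in 6 of 20 cases (30% against 7.78% of all genes) and none rose, with a median of -0.23. Among them were Sqle, a monooxygenase of the sterol pathway (-0.71), and Hmgcs1, which makes its precursor HMG-CoA (-0.39). Leaving out any 1 sample other than OX40plus of mouse 3 left 2 or 3 of them called, and a block for the mouse left 3.

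The inhibitors of cytokine signaling Socs3 and Socs2 fell. Socs3, an inhibitor of interleukin-6 signaling, was at 488, 497 and 545 CPM in OX40minus and 244, 246 and 294 CPM in OX40plus (-0.97 ± 0.10 SE, limma adjusted p = 0.000745). Socs2, which restrains growth hormone and STAT5 signals, was at 104, 96.9 and 84.8 against 50.8, 46.5 and 40.4 CPM (-1.05 ± 0.12 SE, limma adjusted p = 0.000912). Neither overlapped. Of 18 STAT and SOCS genes, 4 fell and 2 rose (33.3% called, against 16.5% of all genes). None rose under a block for the mouse or without any 1 sample other than OX40plus of mouse 3. Of 17 interferon gamma GTPase genes, 6 fell (35.3%, against 7.78% of all genes called lower) and none rose, with a median of -0.42. Gbp2b led them at 56.9, 54.6 and 36.6 against 9.21, 11.3 and 7.31 CPM (-2.41 ± 0.21 SE, limma adjusted p = 0.000393). Type I interferon genes fell in 4 of 25 cases and none rose (median -0.29). These calls are 16% of the list, close to the 16.5% of all genes called, with 7.78% of all genes called lower. The number that fell was 0 without OX40minus of mouse 1, OX40minus of mouse 2 or OX40plus of mouse 1. It was 8 without OX40minus of mouse 3 and 1 without OX40plus of mouse 3.

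Receptors for lipids, prostaglandins and adenosine also differed. Gpr55, a lipid receptor, was at 37.5, 39.6 and 40.1 CPM in OX40minus and 91.5, 90.3 and 95.3 CPM in OX40plus (1.24 ± 0.08 SE, limma adjusted p = 0.000150). Adora2a, the adenosine receptor that dampens T cells, rose by 0.52 (limma adjusted p = 0.00682), while the adenosine receptor gene Adora2b, at 1.52 to 2.65 CPM in OX40minus, fell by 2.53. They belong to a list of purine handling and ATP sensing genes, of which 3 of 14 rose and 4 fell (50% called, against 16.5% of all genes). Without OX40plus of mouse 1, only 1 rose. The prostaglandin receptor genes Ptger2 (0.59) and Ptger4 (0.57) rose, so that 5 of 19 G protein coupled receptor and RGS genes rose and 1 fell (31.6% called).

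**Figure D3:**
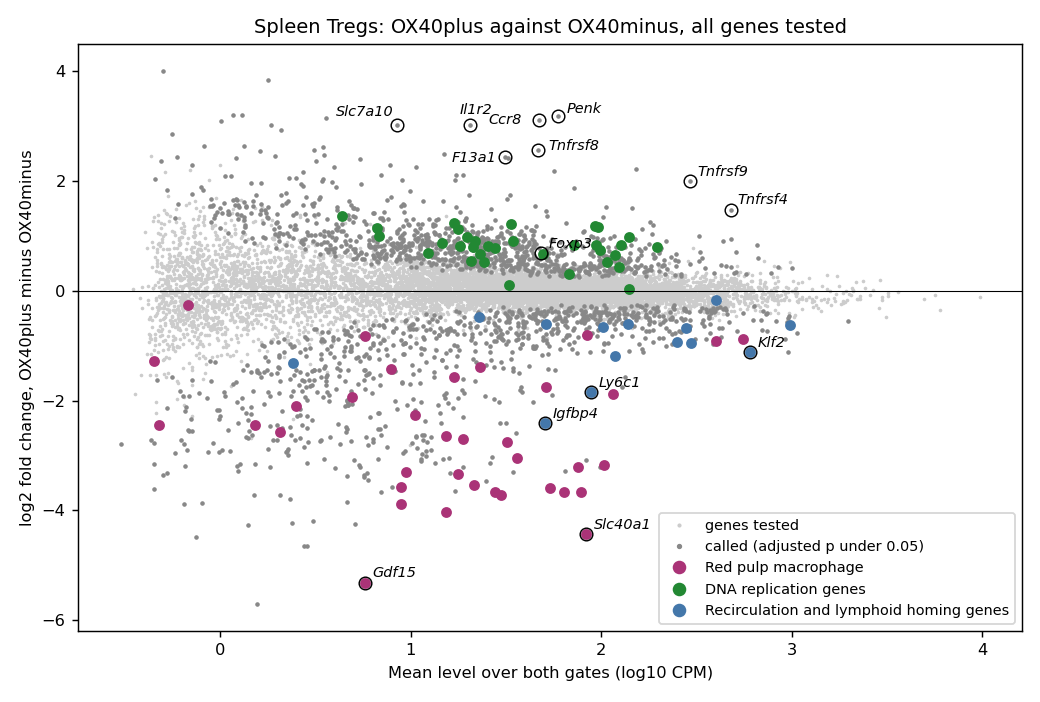
Log2 fold change (OX40plus minus OX40minus) of every gene tested against its mean level over both gates (log10 CPM), with 3 lists in color and circled genes named. Replication genes (green) lie in a band around their median of 0.82, recirculation genes (blue) under 0, and red pulp macrophage genes (purple) reach down to Gdf15 at -5.32, among many lower genes in no colored list.

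Genes of another cell type were among those with the lowest fold changes. Red pulp macrophages are the spleen cells that clear aged red cells and recycle iron. Of their 36 tested genes, 32 were lower in OX40plus (88.9%, against 7.78% of all genes called lower) and none higher, with a median of -2.67. Slc40a1, the iron exporter ferroportin, was at 139, 202 and 139 CPM in OX40minus and 7.96, 6.18 and 8.09 CPM in OX40plus (-4.43 ± 0.17 SE, limma adjusted p = 3.13e-05). C1qa, a subunit of complement C1q, was at 121, 134 and 97.2 against 6.88, 6.35 and 17.4 CPM (-3.67 ± 0.35 SE, limma adjusted p = 0.000504). The OX40minus samples were all far higher, and mouse 3 had the most C1qa of the OX40plus samples. Summed over the list, levels were 2950, 3400 and 2670 CPM in OX40minus and 903, 800 and 1220 CPM in OX40plus of mouse 1, 2 and 3. The 2 members with the highest level, which weigh most in this sum, fell less than the median (-0.87 and -0.92). The cells had been sorted as GFP+ after staining for CD45, CD3 and CD4, and the part of macrophage RNA in other genes that fell was not tested.

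At a mean of at least 10 CPM in the higher gate, the 15 lowest genes that are in no list of other cell types included P2ry13 (-3.66), Clec4n (-3.65), Cd63 (-3.31), Lpl (-3.30), Lrp1 (-3.28) and Sirpa (-3.22), which are known from myeloid cells. Of the 18 monocyte genes 11 fell, with summed levels of 1014 to 1216 CPM against 741 to 905 CPM, a list that shares Csf1r and Treml4 with the macrophage list. Its sum also holds Nr4a1, which rose. Among integrins, 8 of 21 fell and 2 rose (47.6% called, against 16.5% of all genes). Itgax (-1.92) and Itgam (-1.11), of myeloid cells, were 2 of those that fell, beside Itgb1 (-0.46), Itgb3 (-0.73) and Itga6 (-0.73). The integrin count fell to 5 without OX40minus of mouse 2 or OX40plus of mouse 1. Leaving out samples gave up to 5 called NK cell genes (without OX40plus of mouse 3) and up to 4 neutrophil genes (without OX40plus of mouse 1). Of 15 dendritic cell genes 3 fell (785 to 853 against 560 to 819 CPM in sum), of 12 NK cell genes 3 fell (99.6 to 136 against 47.0 to 65.1 CPM), and of 10 neutrophil genes 2 fell (63.5 to 82.4 against 37.1 to 46.7 CPM). The dendritic cell sums overlapped between the gates. These calls are 20%, 25% and 20% of the lists, against 16.5% of all genes called and 7.78% called lower.

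B cell genes were at like levels in both gates. None of 11 tested was called by limma, by limma-voom or at an unadjusted p under 0.05, with summed levels of 653 to 852 CPM in OX40minus and 636 to 955 CPM in OX40plus. Of 5 plasma cell genes, 2 rose, Irf4 and Prdm1, which effector Tregs also express. No erythroid gene out of 5 was called by limma or limma-voom (1 at an unadjusted p under 0.05), and 1 of 5 CD8 T cell genes, 3 of 7 megakaryocyte genes, 2 of 8 stromal and endothelial genes and 2 of 4 melanoma genes fell. The last calls are 20%, 42.9%, 25% and 50% of these short lists, against 16.5% of all genes called and 7.78% called lower. The summed melanoma level was 20.5 to 22.4 CPM in OX40minus and 12.6 to 14.9 CPM in OX40plus.

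**Figure D4:**
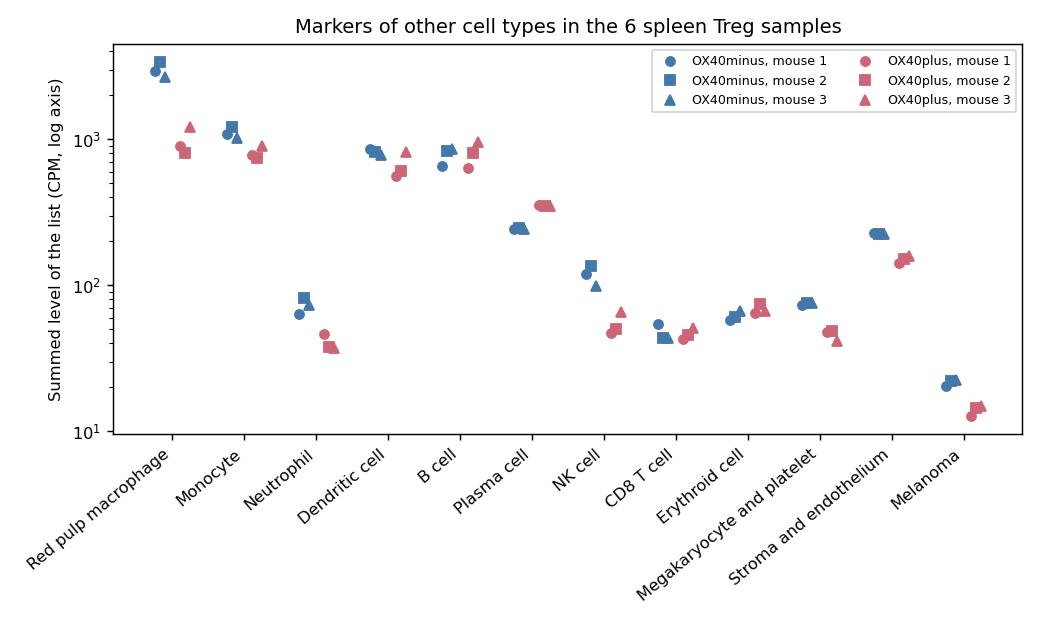
Summed level in CPM (log axis) of the markers of 12 other cell types in each of the 6 samples, blue for OX40minus and red for OX40plus, with a shape for each mouse. Red pulp macrophage markers are the most abundant list in OX40minus at 2670 to 3400 CPM and drop to 800 to 1220 CPM in OX40plus, while B cell markers overlap.

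Tumor Tregs of the same series, sorted in the same way from 4 mice, were set beside the spleen. A single limma fit of all 14 samples gave the OX40 difference in each tissue and tested the difference between them, which was called for 1383 of 12142 genes (11.4%), 580 with a higher (4.78%) and 803 with a lower value in tumors (6.61%). In tumors alone 4806 genes were called (39.6%). Penk differed by 3.17 and 2.55, a difference of -0.62 ± 0.30 SE that was not called (limma adjusted p = 0.200). Ccr8 (3.11 and 1.62), Tnfrsf8 (2.56 and 1.32), Tnfrsf9 (2.0 and 0.33), Il10 (2.41 and 0.73), Pdcd1 (1.87 and 0.65) and Klrg1 (1.52 and 0.16) had called differences, each with the larger OX40 effect in spleens. F13a1 and Slc7a10 were higher in OX40plus in spleens and lower in tumors, the latter from 1.15 ± 1.06 to 0.147 ± 0.221 CPM (SD, n = 4), near the level of 3 counts (0.104 to 0.13 CPM). Klf2 (-1.12 and -2.61) and Tcf7 (-0.78 and -4.19) fell further in tumors. Of the list of MYC and ribosome biogenesis genes, where none of 20 was called in spleens, 16 had a called higher and 1 a called lower difference in tumors than in spleens. Other lists moved in the same direction in both tissues. In tumor OX40plus, 31 of 33 replication and 34 of 35 mitosis genes rose (19.1% of all genes were called higher there). Recirculation genes fell in 12 of 14 cases (20.4% of all genes were called lower).

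**Figure D5:**
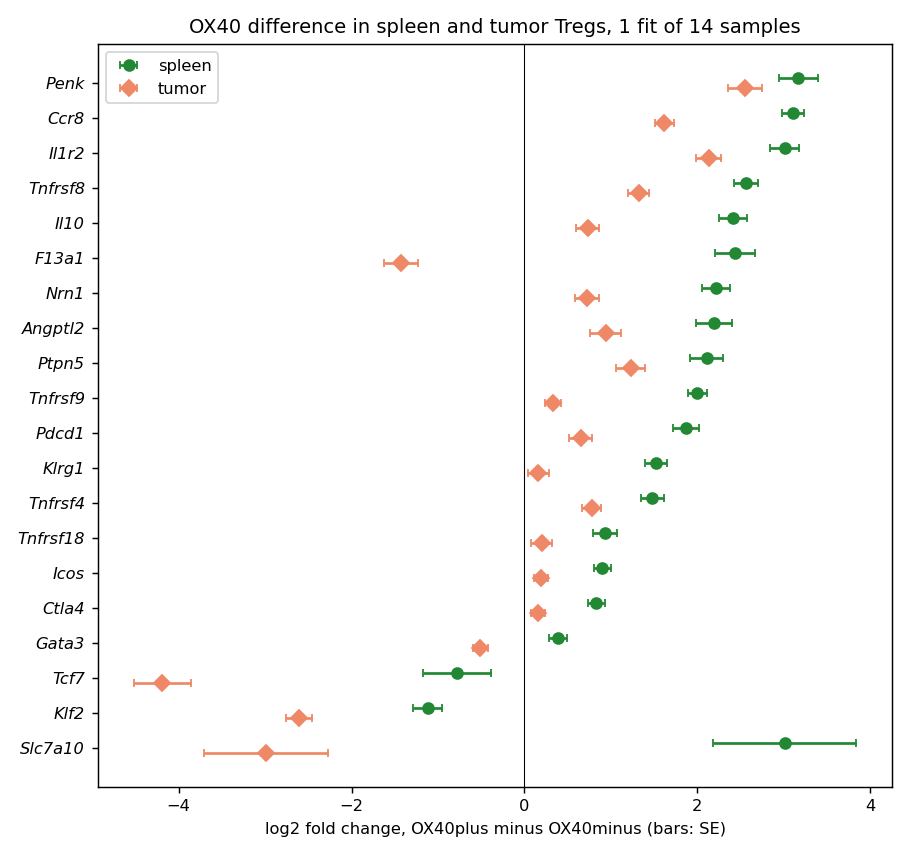
Log2 fold change between OX40plus and OX40minus in spleen (green circles, 3 against 3 samples) and tumor (orange diamonds, 4 against 4) for 20 genes from 1 limma fit, with bars for the SE. Genes raised in spleen lie further right there in several cases, such as Tnfrsf9 at 2.0 and 0.33, and F13a1 and Slc7a10 lie on opposite sides of 0.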

How the data were processed

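The deposited table of 13103 genes in 28 libraries holds log2 CPM in the form of voom (an offset of 0.5 counts), as read from the values. The submitters' processing notes name bcl2fastq 2.19, kallisto, limma and build mm10. How transcripts were summed, scaled and filtered and whether strand was used is not given there, so near-identical gene copies and antisense partners are uncertain.

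The 2 libraries of a mouse and gate differed by close to sampling noise (median chi-square per gene 0.495 to 0.542, sampling 0.455, other mice 1.42 to 6.29) and were counted as 1 sample. Undoing the offset gave estimated counts. Of the positive ones, 44.8% to 49% were whole within 0.01, too few for a count model. For the spleen samples, 3 counts are 0.115 to 0.126 CPM.

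limma 3.58.1 (R 4.3.3, eBayes with trend) was fitted to the 6 spleen samples, over genes reaching 0.5 CPM in 3 or more. On simulated data with 200 of 11399 genes changed, this comparison recovered 0% of log2 changes of 0.5, 71.5% of 1 and 89% of 2. The real data had 1877 genes called, where the adjustment is less strict, so these shares do not carry over to them. Mouse numbers in the titles pair the gates, and same-mouse deviations correlated by -0.09, 0.16 and -0.24; the mouse as a block was an alternative. The titles name mice and nothing more about replicates.

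The members and 54 gene lists (945 genes, 776 tested) were chosen with earlier results of these data known. Named by rule were the 15 highest and lowest called genes (gates apart, mean of 10 CPM or more in the higher gate, without Tnfrsf4, gene models, mitochondrial and receptor segment genes), the 15 lowest outside other-cell lists, each list's 5 smallest adjusted p and 2 highest levels, 26 fixed genes and the 5 nearest Penk (345 in all). Other list members were named after their values were seen, to account for a list's calls. Some members are counted in their lists but not reported here by name. Gene coordinates are from GENCODE M21 (GRCm38). Alternatives were other scaling, filters, offsets, single libraries, limma settings, a fit of all 14 samples, the block and leaving out samples.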

Additional observations from a re-analysis of the deposited data

Results flagged for a closer look

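Groups of 3 samples were too small for a check of single outlying samples. Of the 345 genes named by rule, 129 had an OX40 difference that itself differed between tissues in the limma fit of all 14 samples, 53 of them with opposite signs, counted whether or not the difference was called in either tissue. Listed one by one are 24 of these, drawn from those called in spleens and named as highest genes, as lowest genes outside the lists of other cells or as fixed genes, each given as the tumor log2 difference minus the spleen log2 difference. It was negative, with a smaller difference in tumors, for Ccr8 (-1.48), Il1r2 (-0.88), Tnfrsf8 (-1.24), Il10 (-1.68), Nrn1 (-1.51), Angptl2 (-1.25), Ptpn5 (-0.88), Tnfrsf4 (-0.69), Tnfrsf9 (-1.67), Tnfrsf18 (-0.74), Icos (-0.71), Ctla4 (-0.67), Pdcd1 (-1.21) and Klrg1 (-1.36).

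The sign of the OX40 difference changed between tissues for Slc7a10 (-6.01), F13a1 (-3.86), Gata3 (-0.89) and Trpm2 (3.82) among the 24. Genes outside the 24 with opposite signs include Bhlhe40 (1.16 in spleens and -1.12 in tumors), Satb1 (-0.96 and 0.78), Dusp1 (0.74 and -0.75) and Spp1 (-2.56 and 2.11). Others had a tumor value about the size of its SE or below it, such as Hmox1 (-3.22 and 0.18 ± 0.17 SE) and Gpr55 (1.24 and -0.03 ± 0.12 SE). F13a1 was at 9.69 ± 0.594 CPM in spleen OX40minus and 53.2 ± 12 in spleen OX40plus (SD, n = 3), and at 34.0 ± 12.4 and 12.1 ± 0.657 CPM in tumors (n = 4). Gata3 was at 125 ± 11.3 and 163 ± 14.5 CPM in spleens and at 240 ± 9.22 and 170 ± 16.5 CPM in tumors. Tcf7 (-3.41) and Klf2 (-1.49) fell more in tumors.

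The myeloid genes Clec4n (2.1), Cd63 (2.68), Sirpa (1.81) and Clec7a (2.46), far lower in spleen OX40plus, had a smaller fall in tumors, or one that was not called. For other myeloid genes the difference between tissues was not called, such as C1qa (-3.67 in spleens and -3.38 in tumors) and Mrc1 (-3.56 and -3.17). Of 37 red pulp macrophage genes tested in the fit of all samples, 22 were lower and 2 higher in tumor OX40plus. The difference between tissues was called for 7. The ion channel gene Trpm2, also known from myeloid cells, was not called in tumors, where its mean was higher in OX40plus. It was at 24.1 ± 5.44 and 2.87 ± 1.33 CPM in spleens and at 2.24 ± 1.12 and 3.52 ± 1.39 CPM in tumors.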

How the results depend on the processing

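Of 1877 genes called by limma between the spleen gates, 1005 were called when all 14 samples shared 1 fit, and the cause was not tested. Leaving out single samples or both samples of 1 mouse gave 715 to 2050, with 1118 without OX40plus of mouse 1, 1129 and 1215 without OX40minus of mouse 2 and 3, and 715 and 831 without both samples of mouse 1 and 2, where fewer samples were fitted. With the mouse as a replicate block 1346 genes were called. Scaling moved the split: 1208 higher and 797 lower with library size alone, 940 and 940 with median-of-ratios factors, against 990 and 887. The count of genes whose OX40 difference differed between tissues was 1383, and 783 to 1649 with single samples left out, lowest without spleen OX40plus of mouse 1. Tumor calls (4806) ran from 4264 to 4895 over the alternatives. No called value of a named gene changed sign under an alternative run. Of 207 named genes called, 105 kept the call under each of the 21 alternatives that gave them a value (8 had none under the 2 CPM filter), 180 with the block and 195 without OX40plus of mouse 3. In simulated data with 200 of 11399 genes changed, 0% of log2 changes of 0.5 were recovered. The real data had 1877 genes called, which makes the adjustment less strict, and smaller changes were called there, such as Gata3 (0.39).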
